A study of Homo sapiens with 12 samples.

Results

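The WNT ligands, receptors and secreted inhibitors were followed in RNA sequencing data of TIGK cells, which are human keratinocytes of the gingiva that telomerase (hTERT) made immortal. They comprised, by their names, the protein-coding genes of the WNT, FZD, SFRP and DKK families together with LRP5, LRP6, AXIN2, LGR4, LGR5, RNF43, ZNRF3 and TCF7L2. They were 45 of the 58735 genes in the count table. Of the 45 genes, 40 had a count in at least 1 library and 31 had enough counts to enter at least 1 of the tests. The 5 genes without a single count were WNT8A, WNT9B, WNT16, SFRP4 and DKK2, and 9 others (WNT1, WNT2, WNT5A, WNT8B, SFRP2, SFRP5, DKK4, LGR5 and AXIN2) had counts that were too low for any test.

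WNT proteins are secreted, lipid-modified ligands that bind Frizzled (FZD) receptors on the surface of the cell. In the canonical branch, a Frizzled receptor and the co-receptors LRP5 or LRP6 together stop the breakdown of β-catenin, which then enters the nucleus and acts with TCF/LEF factors such as TCF7L2. SFRP proteins bind the ligands outside the cell, DKK1 blocks the LRP co-receptors, and RNF43 and ZNRF3 remove Frizzled receptors from the surface unless R-spondins, acting through LGR4 or LGR5, hold them back. AXIN2 and LGR5 are widely used target genes of the canonical branch. In stratified epithelia, WNT signaling is known for its role in the renewal of basal keratinocytes and in the development of hair and teeth.

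All libraries came from TIGK cells in a medium with 48 mM glucose. Cells received 500 μM L-Arginine (Arg) for 24 or 48 h, or were kept for the same time as a control in the same base medium, which contained no Arg of its own. The 4 groups held 12 libraries, with replicates A, B, and C in every one. The sources do not say whether the replicates were separate cultures, so the p-values measure the spread between these libraries only, and the results are those of 1 cell line.

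The libraries held between 16542243 and 19040964 gene counts, and the 45 genes took between 0.101% and 0.122% of them. All 10 keratinocyte markers were detected, with a summed level between 12486 and 16299 RPKM (CPM per kilobase of exon, where CPM are counts scaled to library size) per library. The 7 fibroblast, 6 melanocyte, 4 endothelial and 5 leukocyte markers summed to at most 8.99, 4.62, 0.894 and 1.90 RPKM, with TYR at 0 counts and COL1A2, SOX10, CDH5 and PTPRC under 0.1 RPKM. Most of the fibroblast sum came from DCN and COL1A1, with means of 3.45 and 1.84 RPKM. Most of the melanocyte and leukocyte sums came from MITF (2.91 RPKM) and CD14 (1.05 RPKM). Control replicate B at 48 h stood apart. Mitochondrially encoded genes took 1.55% of its counts, against 0.906% and 0.707% in the other controls of that time and between 1.14% and 1.31% in the 48 h Arg libraries. The summed level of 8 genes of differentiating keratinocytes (KRT1, KRT10, KRT4, KRT13, IVL, LOR, FLG and SPRR1B) was 1751 RPKM in it, against 800.2 and 734 RPKM in replicates A and C of the control and between 1325 and 1670 RPKM in the 48 h Arg libraries. At 24 h, control replicate B also had the highest sum of the control libraries, with 554 RPKM against 359 and 432 RPKM in replicates A and C. The 24 h Arg libraries had between 469 and 658 RPKM. Fits without control replicate B at 48 h kept control replicate B at 24 h. The part of these differences in the results was not tested. Calls that changed when control replicate B at 48 h was left out are given both ways.

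Promoter sequences of RefSeq (GRCh38.p14, from 250 bases before to 50 bases after a start) were matched by symbol to 29 of the 45 genes, with 35 promoters. Those of 5 genes on which the results turn are shown 5′ to 3′ on the strand of the gene. WNT6 and WNT10A are neighbors that both rose with time, FZD8 and FZD9 are receptors that fell with Arg at 24 h, and DKK1 was the most abundant of the 45 genes. The windows are chr2:218859555-218859854 for WNT6, chr2:218880602-218880901 for WNT10A and chr7:73433528-73433827 for FZD9, all on the plus strand, chr10:35642247-35642546 on the minus strand for FZD8, and chr10:52314031-52314330 on the plus strand for DKK1. The WNT10A gene of the count table begins before its window, at position 218880363. Capitals mark TATAAA on the strand of the gene and CTTTGA, the core of the TCF/LEF motif, on either strand.
WNT6: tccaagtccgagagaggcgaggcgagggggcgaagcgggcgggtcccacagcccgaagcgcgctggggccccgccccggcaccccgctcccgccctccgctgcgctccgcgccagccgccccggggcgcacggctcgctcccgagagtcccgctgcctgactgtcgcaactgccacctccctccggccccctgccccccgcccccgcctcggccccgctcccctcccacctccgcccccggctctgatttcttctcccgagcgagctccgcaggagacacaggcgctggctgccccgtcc
WNT10A: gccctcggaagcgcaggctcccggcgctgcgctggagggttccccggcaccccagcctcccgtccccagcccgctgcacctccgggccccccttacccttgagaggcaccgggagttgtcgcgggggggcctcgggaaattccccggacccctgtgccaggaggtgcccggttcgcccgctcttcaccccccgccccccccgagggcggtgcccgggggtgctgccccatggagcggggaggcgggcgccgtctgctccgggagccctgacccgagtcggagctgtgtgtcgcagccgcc
FZD9: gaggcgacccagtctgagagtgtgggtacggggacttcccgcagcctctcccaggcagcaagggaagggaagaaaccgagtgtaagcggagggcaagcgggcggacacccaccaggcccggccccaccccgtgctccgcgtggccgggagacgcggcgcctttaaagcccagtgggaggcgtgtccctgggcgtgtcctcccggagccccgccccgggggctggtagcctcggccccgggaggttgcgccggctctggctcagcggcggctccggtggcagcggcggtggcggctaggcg
FZD8: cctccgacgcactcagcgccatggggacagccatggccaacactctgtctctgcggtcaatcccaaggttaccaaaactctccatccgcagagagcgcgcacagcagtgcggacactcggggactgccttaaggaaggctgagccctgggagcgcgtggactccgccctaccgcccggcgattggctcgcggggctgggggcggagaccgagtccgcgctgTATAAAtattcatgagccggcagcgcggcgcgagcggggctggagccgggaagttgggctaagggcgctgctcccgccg
DKK1: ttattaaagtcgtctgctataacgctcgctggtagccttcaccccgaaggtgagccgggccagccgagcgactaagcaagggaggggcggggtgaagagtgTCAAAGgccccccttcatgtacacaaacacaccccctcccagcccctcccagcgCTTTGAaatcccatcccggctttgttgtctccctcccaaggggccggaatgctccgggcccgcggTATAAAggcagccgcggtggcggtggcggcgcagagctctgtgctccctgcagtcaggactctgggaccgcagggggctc
The promoters of WNT6, WNT10A and FZD9 are 78.0%, 76.7% and 73.7% G or C and hold 37, 30 and 31 CpG dinucleotides, and none of the motifs searched for is in these windows. The FZD8 promoter (67.0% G or C, 31 CpG) holds TATAAA at position −29 from the start, and the DKK1 promoter (63.7% G or C, 20 CpG) holds it at position −30. CTTTGA is in the DKK1 promoter 2 times, once on each strand, and in no other of the 35 promoters. Over all 35116 promoters of the same length, 12.9% hold CTTTGA on either strand, 7.33% hold TATAAA on the strand of the gene, and 7.71% hold TGANTCA, the AP-1 motif, on either strand. The AP-1 motif is in 1 of the 35 promoters, that of RNF43, and TATAAA is in 2, those of DKK1 and FZD8. Over the 35 promoters, the medians are 65.7% G or C and 25 CpG dinucleotides, against 58.7% and 14 over all promoters. A match is a run of letters and not a measured binding site.

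Levels were compared between genes per length, as RPKM, and are shown in the plot of group means for all 45 genes. Among the ligands, WNT10A was the most abundant, with a mean of 10.4 RPKM over the 12 libraries, followed by WNT6 (7.22 RPKM) and WNT7B (5.67 RPKM). WNT10B and WNT7A had 1.93 and 1.41 RPKM, and the other 14 WNT genes, among them WNT3A and WNT5A, had at most 0.678 RPKM (WNT9A). The libraries of WNT10A and WNT6 spread from 4.06 to 19.3 RPKM and from 0.763 to 17.4 RPKM, and after 48 h with Arg they had means of 15.3 and 15.5 RPKM. Among the 10 Frizzled receptors, all of which were tested, FZD6 (36.0 RPKM) and FZD2 (32.6 RPKM) were far above the rest, and their libraries overlapped in level. FZD7, FZD1 and FZD5 followed with 5.35, 5.04 and 4.47 RPKM, also with overlapping libraries. FZD8 and FZD9 had 1.83 and 1.49 RPKM. LRP5 (14.5 RPKM) was the more abundant co-receptor, and no library of LRP6 (3.03 RPKM) reached its level.

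The secreted inhibitors held the highest level of all 45 genes. DKK1, the LRP blocker, had a mean of 90.2 RPKM over the 12 libraries. SFRP1 (18.4 RPKM) was the SFRP gene in use, since SFRP2 and SFRP5 had 12 and 21 counts in all 12 libraries together. DKK3 (15.6 RPKM) is a divergent member of the DKK family, and DKK4 had 5 counts. Among the genes that set receptor number, LGR4 (17.1 RPKM), the receptor for R-spondins, and ZNRF3 (4.17 RPKM), the ubiquitin ligase, were expressed, while RNF43 was at 0.469 RPKM. The nuclear effector TCF7L2 had 3.08 RPKM. The target gene AXIN2 had 34 counts over the 12 libraries, with between 0 and 12 in each, and LGR5 had 6 counts, with between 0 and 3 in each. Neither entered a test, and a change in them was not detectable at this depth.

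**Figure D1:**
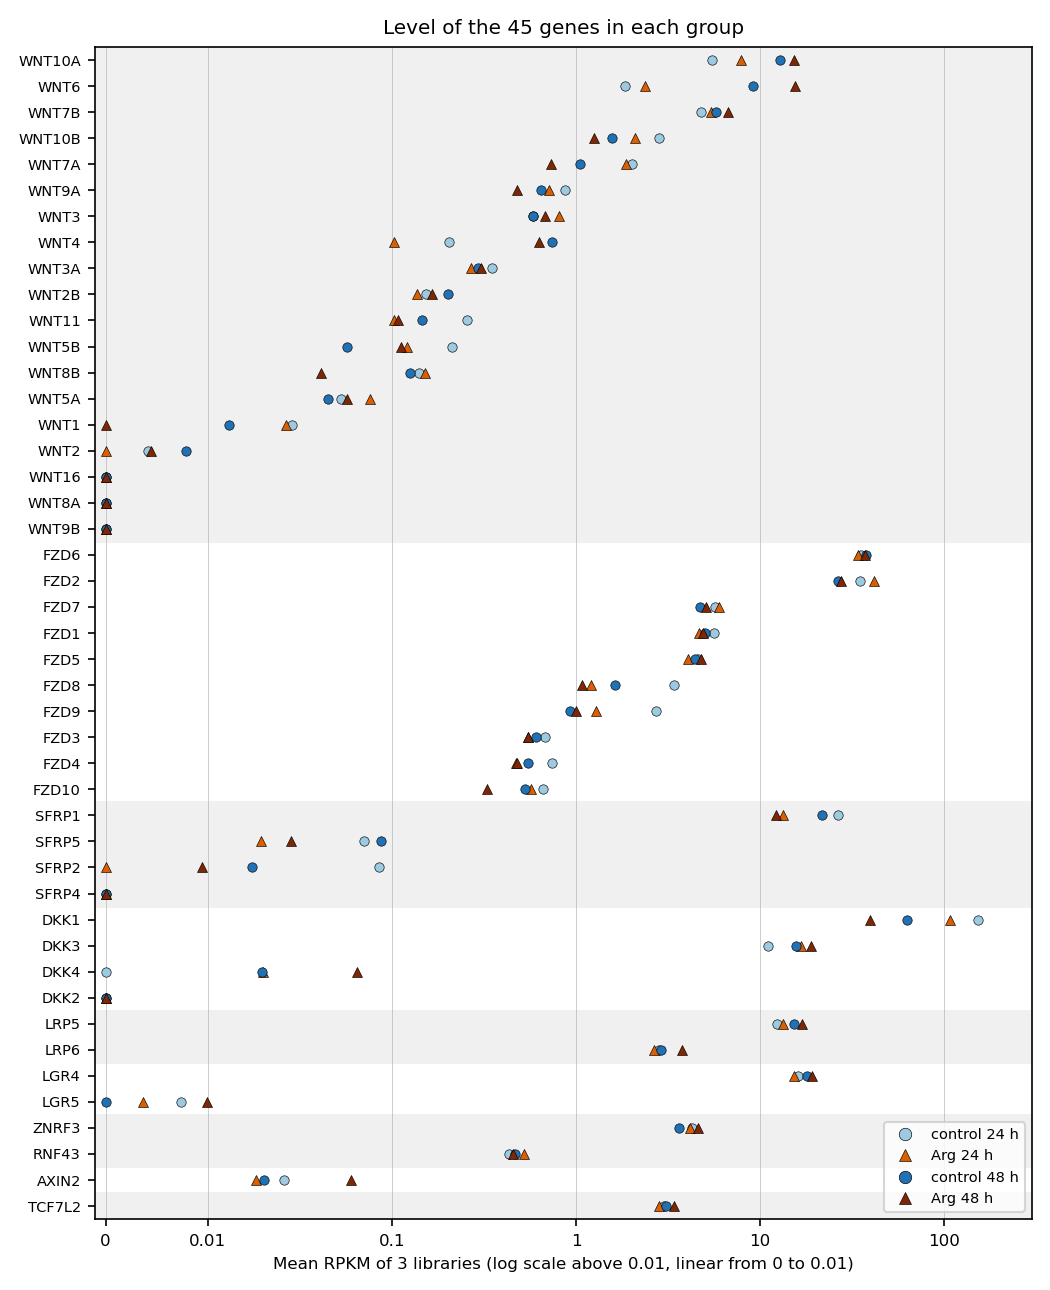
Mean RPKM of each of the 45 genes in the 4 groups (3 libraries each), on an axis that is logarithmic above 0.01 and linear below it. Circles are control and triangles are Arg groups, ordered by family and then by level. DKK1 is highest with 152 RPKM in the 24 h control and 39.3 RPKM after 48 h with Arg, and AXIN2 and LGR5 lie under 0.1 RPKM in every group.

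Whether Arg changed these genes was asked first at 24 h. In Arg-treated cells, the secreted inhibitor SFRP1 and the receptors FZD8 and FZD9 fell 2.0-fold, 2.81-fold and 2.13-fold, and DKK3 rose 1.51-fold. DKK1 was also called lower, although its groups overlapped. No WNT ligand passed the adjusted threshold. The share of mitochondrially encoded counts also differed between these groups without overlap, from 1.20% to 1.30% in the control and from 0.624% to 0.802% with Arg, as did MITF, a melanocyte marker (log2 fold change −0.49, adjusted p = 0.0280 from edgeR), while the fibroblast marker DCN was called lower with overlapping groups (−0.70, adjusted p = 0.0294). The other tested markers of fibroblasts and melanocytes were not called. The leukocyte marker CD14 was lower with Arg without overlap but was not called (−0.89, adjusted p = 0.120). The same held for CD14 at 48 h (−1.06, adjusted p = 0.254). The part of these differences in the results was not tested. Levels are given as CPM (counts scaled to a common library size, after TMM normalization of all 12 libraries). In bulk RNA, fewer cells that express a gene and less of its RNA per cell cannot be told apart.
SFRP1 (ENSG00000104332, minus strand of chromosome 8) had 123, 118 and 137 CPM in control replicates A, B, and C and 60.1, 60.6 and 69.1 CPM in Arg replicates A, B, and C. Every Arg library lay below every control library. The means were 126 ± 10.1 and 63.3 ± 5.07 CPM (SD, n = 3), and by the quasi-likelihood test of edgeR the log2 fold change was −1.0, with a standard error of 0.09 and an adjusted p of 3.81e-06. The same order was found for FZD8 (ENSG00000177283, chr10:35638249-35642278 of GRCh38, minus strand), which had 17.6, 8.58 and 14.9 CPM in the control and 4.5, 5.07 and 5.11 CPM with Arg. The control libraries of FZD8 spread widely, with replicate B lowest, and the Arg libraries lay close together below them. It changed by −1.49 on the log2 scale (standard error 0.22, adjusted p = 0.000604), the largest decrease among the 30 of these genes tested at 24 h. FZD9 (ENSG00000188763, chr7:73433783-73436120, plus strand) had 6.45, 5.93 and 6.78 CPM in the control and 3.20, 3.20 and 2.58 CPM with Arg. The groups were again apart, and its log2 fold change was −1.09 (standard error, SE, of 0.21, and an adjusted p of 0.00517).
DKK1 (ENSG00000107984, chr10:52314296-52318042, plus strand) had 366, 241 and 400.2 CPM in the control and 279.7, 234 and 193 CPM with Arg. Control replicate B lay within the Arg range, so the groups overlapped. The log2 fold change of −0.51 (standard error 0.15) had an adjusted p of 0.0453 from edgeR, but of 0.223 from DESeq2 and of 0.0730 from edgeR with all 12 libraries in a single model. Without control replicate A or C, or without Arg replicate B or C, it was between 0.155 and 0.196. DKK1 overlaps PRKG1-AS1 on the opposite strand, which had 248 counts against 43000 of DKK1. DKK3 (ENSG00000050165, chr11:11963106-12009769, minus strand) moved the other way, with 52.3, 66.7 and 49.5 CPM in the control and 77.4, 82.5 and 94.6 CPM with Arg. All Arg libraries of DKK3 were above the control libraries (log2 fold change 0.59, standard error 0.11, adjusted p = 0.00388).

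**Figure D2:**
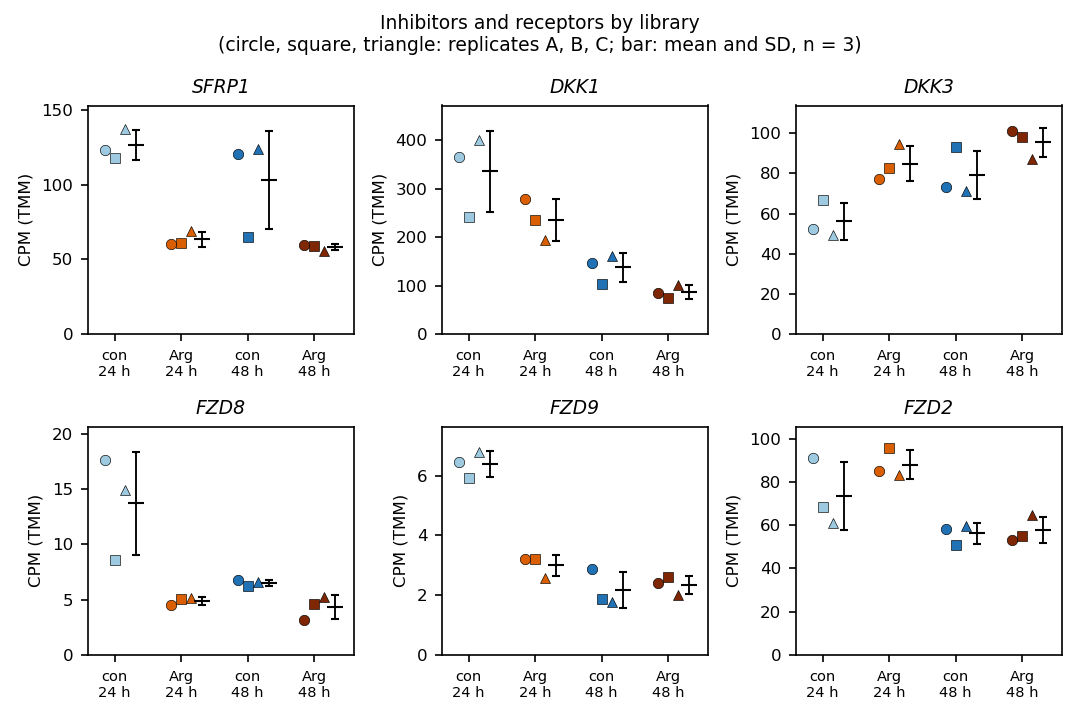
CPM (TMM) of SFRP1, DKK1, DKK3, FZD8, FZD9 and FZD2 in every library, by group. Circles, squares and triangles are replicates A, B, and C, and bars show the mean and SD (n = 3). SFRP1 lies between 60.1 and 69.1 CPM in the Arg libraries at 24 h and between 118 and 137 CPM in the control, and control replicate B at 48 h (64.9 CPM) lies near the Arg level.

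In all, 1 of the 30 tested genes was called higher and 4 were called lower at an adjusted p under 0.05, and over all 14279 genes tested 2.79% were called higher and 3.84% lower. At an unadjusted p under 0.05, 3 were higher and 7 were lower, against 10.8% and 11.9% of all genes. Of the 30 genes, 21 had a negative log2 fold change, with a median of −0.14, where the median of all genes was 0.003. Among the Frizzled receptors, 8 of 10 had a negative value, with a median of −0.24.
The other 5 genes with an unadjusted p under 0.05 did not pass the adjusted test. Among the ligands, WNT10A, known for its role in tooth and skin appendage development, had 13.9, 28.1 and 14.4 CPM in the control and 19.1, 25.0 and 36.1 CPM with Arg, and the groups overlapped (log2 fold change 0.51, adjusted p = 0.196 from edgeR). Without control replicate B, its log2 fold change was 0.92 with an adjusted p of 0.00365. Of the 6 fits with a single library left out, only this 1 passed, and the log2 fold change fell as low as 0.23 (adjusted p up to 0.659). WNT10B had 8.56, 6.66 and 7.01 CPM in the control and 4.61, 6.64 and 5.21 CPM with Arg, just without overlap (−0.44, adjusted p = 0.199). The receptor FZD1 had 37.2, 39.7 and 39.8 CPM in the control and 25.7, 33.4 and 38.2 CPM with Arg, with Arg replicate C within the control range (−0.26, adjusted p = 0.207). FZD2 had 90.9, 68.5 and 61.0 CPM in the control and 84.8, 95.5 and 83.3 CPM with Arg, with control replicate A within the Arg range (0.26, adjusted p = 0.210). Without control replicate A, its log2 fold change was 0.44 with an adjusted p of 0.0398. Only this 1 of the 6 such fits passed, and the value fell as low as 0.13 (adjusted p up to 0.608). FZD4, the receptor for norrin, had 6.23, 4.29 and 5.85 CPM in the control and 4.78, 3.03 and 2.69 CPM with Arg, with overlapping groups (−0.64, adjusted p = 0.138). Without Arg replicate A, this became −0.94 with an adjusted p of 0.0388. Again only this 1 of the 6 such fits passed, and the weakest value was −0.48 (adjusted p up to 0.381). FZD4 (900 counts) overlaps PRSS23 on the opposite strand (9208 counts), so its values are uncertain.
The abundant FZD6 had 145, 146 and 139 CPM in the control and 144, 125 and 144 CPM with Arg, and its log2 fold change was −0.06 (standard error 0.08). LRP5 and LRP6 had log2 fold changes of 0.12 and −0.08, LGR4 of −0.07, ZNRF3 of −0.02 and TCF7L2 of −0.08, all with adjusted p-values above the threshold. The ligand WNT4, which had at most 1.47 CPM in a library of this time, had a log2 fold change of −0.97 (SE 0.53, and an adjusted p of 0.290). The remaining genes of low level ranged from −0.80 (WNT5B) to 0.47 (WNT3) without an unadjusted p under 0.05, and the counts of WNT5B (118) and WNT2B (449) are uncertain, since FBXL14 (2111 counts) and ST7L (3052 counts) overlap them on the opposite strand.

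**Figure D3:**
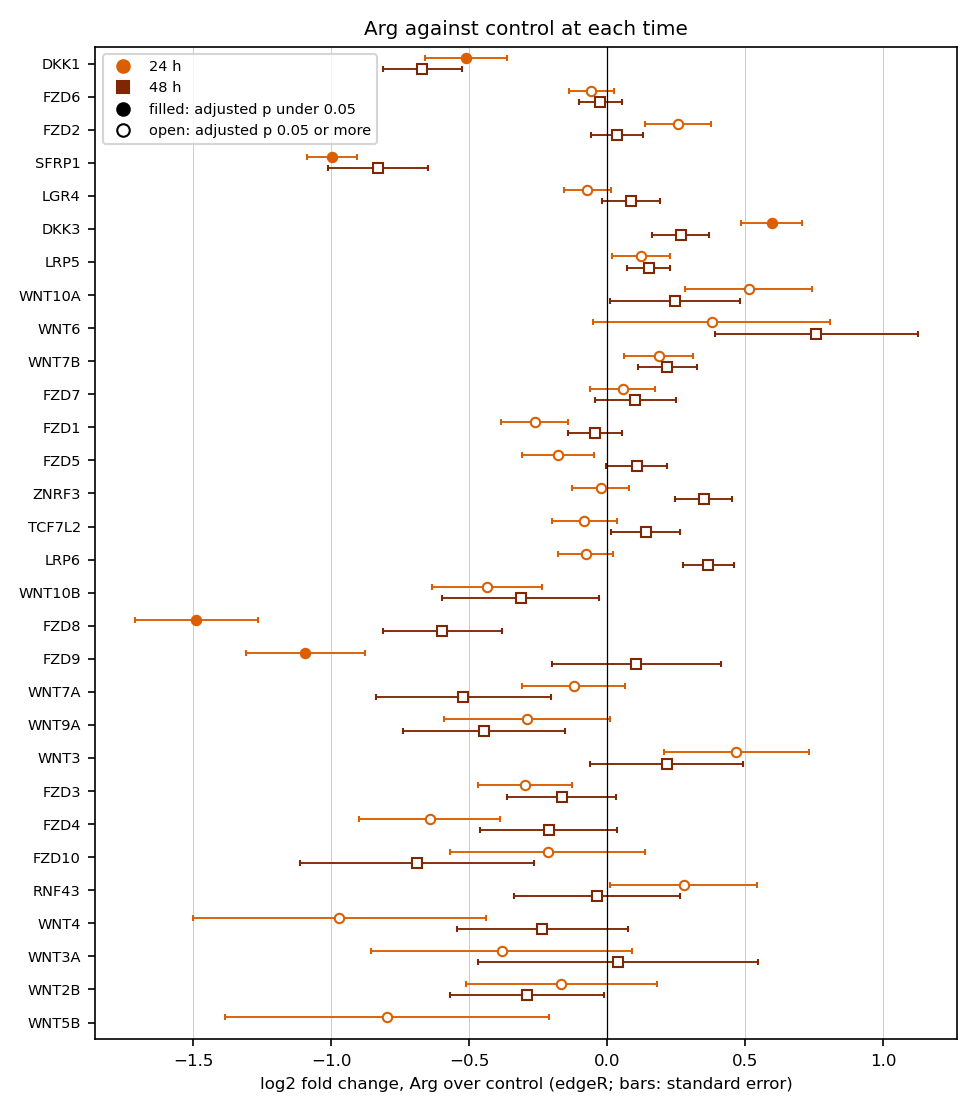
Log2 fold change of Arg over control at 24 h (circles) and 48 h (squares) for the genes tested at either time, with the standard error as bars, ordered by level. Filled symbols have an adjusted p under 0.05 from edgeR. SFRP1, FZD8, FZD9, DKK1 and DKK3 are filled at 24 h, and no gene is filled at 48 h.

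At 48 h, the inhibitors SFRP1 and DKK1 were at a 1.78-fold and 1.59-fold lower mean level with Arg, and the co-receptor LRP6 and the ligase ZNRF3 at a 1.29-fold and 1.27-fold higher one, but with all 6 libraries none of the 29 tested genes passed the adjusted threshold. Without control replicate B, 9 of them did. That fit held only replicates A and C of the control. For each of the 9, replicate B was the control library furthest toward the Arg side. Leaving it out therefore widens the difference in itself, and these calls are no separate support for an Arg effect. For SFRP1, DKK1, DKK3, LRP6 and ZNRF3, only this 1 of the 6 fits with a single library left out passed. The highest adjusted p of these 5 genes in such edgeR fits lay between 0.594 and 0.732. 
With all libraries, edgeR called 0 of these genes higher and 0 lower at an adjusted p under 0.05, where 0% and 0.117% of all 14562 genes tested were called, and DESeq2 called 0 and 0 as well. At an unadjusted p under 0.05, both tools had 3 higher and 3 lower, against 5.94% and 7.49% of all genes by edgeR. The median log2 fold change of the 29 genes was 0.03, with 15 above and 14 below 0, where the median of all genes was 0.002. Without control replicate B, edgeR called 7 higher and 2 lower, against 7.76% and 8.17% of the 14854 genes tested then.
SFRP1 had 120.5, 64.9 and 124 CPM in control replicates A, B, and C and 59.5, 58.7 and 55.6 CPM with Arg. Control replicate B lay just above the Arg libraries, far below the other controls. The log2 fold change was −0.83 (SE 0.18, and an adjusted p of 0.133 from edgeR), and −1.08 (adjusted p = 7.58e-11) without that library. DKK1 had 147, 104 and 162 CPM in the control and 84.7, 74.2 and 101 CPM with Arg. The groups did not overlap, with replicate B again the lowest control (log2 fold change −0.67, standard error 0.14, adjusted p = 0.133), and without it the values were −0.83 and 3.80e-07. DKK3 had 73.1, 93.2 and 71.4 CPM in the control and 101, 98.0 and 87.3 CPM with Arg, with replicate B the highest control and within the Arg range (0.27, adjusted p = 0.294), and without it 0.40 (adjusted p = 0.000513).
LRP6 had 28.9, 32.6 and 28.5 CPM in the control and 36.2, 40.2 and 39.7 CPM with Arg, with all Arg libraries above the controls. Its log2 fold change was 0.37 (SE 0.09, and an adjusted p of 0.157 from edgeR), and 0.43 (adjusted p = 0.00197) without control replicate B. ZNRF3 had 24.4, 28.0 and 23.1 CPM in the control and 33.1, 30.2 and 33.2 CPM with Arg, also without overlap. The log2 fold change of ZNRF3 was 0.35 (standard error 0.10, adjusted p = 0.201), and 0.44 (adjusted p = 0.00342) without it. FZD8 had 6.77, 6.22 and 6.60 CPM in the control and 3.13, 4.64 and 5.24 CPM with Arg, so that the groups were apart, and the difference passed the adjusted threshold neither with replicate B (−0.60, adjusted p = 0.267) nor without it (−0.63, adjusted p = 0.0590). FZD9 had 2.89, 1.87 and 1.77 CPM in the control and 2.40, 2.62 and 2.02 CPM with Arg, with overlapping groups and a log2 fold change of 0.11 (standard error 0.31), or 0.01 without replicate B (adjusted p = 0.990). With all libraries, the genes not named here ranged from −0.69 (FZD10) to 0.22 (WNT7B), none with an unadjusted p under 0.05.
The ligand WNT6 depended most on the library that stood apart. It had 8.92, 29.7 and 8.10 CPM in control replicates A, B, and C and 27.3, 28.9 and 23.0 CPM with Arg, so that control replicate B lay above every Arg library and the other controls lay far below them. With all libraries, the log2 fold change was 0.76 (SE 0.37, and an adjusted p of 0.393 from edgeR). Without replicate B, and so with only replicates A and C as controls, it was 1.63 (adjusted p = 8.95e-09). WNT10A followed the same order, with 39.3, 65.8 and 26.4 CPM in the control and 59.5, 50.2 and 46.6 CPM with Arg. Its log2 fold change was 0.24 (adjusted p = 0.686), and 0.66 (adjusted p = 0.000680) without replicate B. LGR4 and LRP5 were the other genes called without it, with log2 fold changes of 0.24 and 0.23 and adjusted p-values of 0.0102 and 0.0135. In the same fit, 3 of the 7 tested genes of differentiating keratinocytes were called higher with Arg, KRT1 by 1.0, KRT10 by 1.07 and KRT13 by 0.98 on the log2 scale, and none was called with all libraries. Their part in these differences was not tested.

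From 24 to 48 h, the ligands WNT6, WNT4 and WNT10A rose and WNT7A, WNT10B and the inhibitor DKK1 fell in each treatment. These are separate sets of libraries, 6 for each treatment. In the control, 5 of the 30 tested genes rose and 5 fell at an adjusted p under 0.05, where 9.9% and 10% of all 14449 genes were called, and the median log2 fold change was −0.14 (0.012 over all genes). When control replicate B at 48 h was left out, 4 rose and 6 fell, against 7.81% and 8.6% of all genes, with the call of LRP5 lost and FZD7 added to those that fell (−0.46, adjusted p = 0.0224). With Arg, 7 of 29 rose and 4 fell, against 14.3% and 14% of all 14398 genes, with a median of 0.07 (0.001 over all genes).
WNT6 (ENSG00000115596, chr2:218859821-218874233) and WNT10A (ENSG00000135925, chr2:218880363-218899581) lie on the plus strand of chromosome 2 with 6129 bases between them. WNT6 had 1.30, 5.03 and 3.07 CPM in the control and 1.97, 3.09 and 7.09 CPM with Arg at 24 h, against the 48 h values given above. The highest 24 h library, Arg replicate C, lay below the lowest 48 h library. WNT6 rose 4.99-fold in the control (log2 fold change 2.32, standard error 0.52, adjusted p = 0.0104 from edgeR) and 6.47-fold with Arg (2.69, standard error 0.25, adjusted p = 2.80e-07). Without control replicate B at 48 h, the control value was 1.45 (adjusted p = 0.0128). WNT10A rose by 1.23 in the control, where its groups overlapped in replicate B at 24 h and replicate C at 48 h, and by 0.96 with Arg, where they did not (log2 scale, adjusted p = 0.0184 and 0.000104). DESeq2 gave an adjusted p of 0.0625 for WNT10A in the control, and without replicate B at 48 h its log2 fold change was 0.81 (adjusted p = 0.0351).
WNT4 (ENSG00000162552, chr1:22117305-22143969, minus strand) started near the limit of detection, with 0.650, 1.47 and 0.637 CPM in the control and 0.337, 0.408 and 0.645 CPM with Arg at 24 h, where 3 counts correspond to between 0.156 and 0.179 CPM. At 48 h it had 3.04, 4.77 and 2.25 CPM in the control and 3.34, 2.92 and 2.30 CPM with Arg, above every 24 h library. The log2 fold changes were 1.87 (standard error 0.42, adjusted p = 0.0105) in the control, 1.52 there without replicate B at 48 h (adjusted p = 0.0275), and 2.60 (standard error 0.41, adjusted p = 9.90e-05) with Arg. WNT4 (419 counts) overlaps AL445253.1 on the opposite strand (78 counts). WNT7B, an epithelial ligand, had 22.9, 28.5 and 21.0 CPM in the control at 24 h and 30.7, 31.4 and 25.3 CPM at 48 h. With Arg, it had 24.6, 28.0 and 29.8 CPM and then 36.5, 33.5 and 31.8 CPM. It rose with time in the Arg libraries, which did not overlap (log2 fold change 0.31, adjusted p = 0.0281), a call lost without Arg replicate A at 24 h or without Arg replicate A or B at 48 h (adjusted p between 0.0632 and 0.140). In the control, the log2 fold change was 0.28 (adjusted p = 0.172).
WNT7A had 11.5, 7.51 and 8.69 CPM in the control at 24 h and 4.35, 3.73 and 6.27 CPM at 48 h. With Arg, it had 9.16, 9.09 and 7.31 CPM at 24 h and 1.83, 3.87 and 4.38 CPM at 48 h. All 48 h libraries were below all 24 h libraries, with log2 fold changes of −0.95 (adjusted p = 0.0167) and −1.35 (adjusted p = 0.000379). In the control, this call was lost without replicate A or C at 24 h or replicate A at 48 h (adjusted p between 0.0543 and 0.0989), and without replicate B at 48 h the value was −0.80 (adjusted p = 0.0293). In the control, WNT10B fell to 4.35, 3.89 and 4.08 CPM at 48 h, below its 24 h libraries (log2 fold change −0.85, adjusted p = 0.0115, and −0.81 with 0.0180 without replicate B). With Arg, it fell to 3.39, 4.52 and 2.02 CPM, just without overlap (−0.73, adjusted p = 0.0451), a call lost without Arg replicate B or C at 24 h or without Arg replicate A or C at 48 h (adjusted p between 0.0641 and 0.195).

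**Figure D4:**
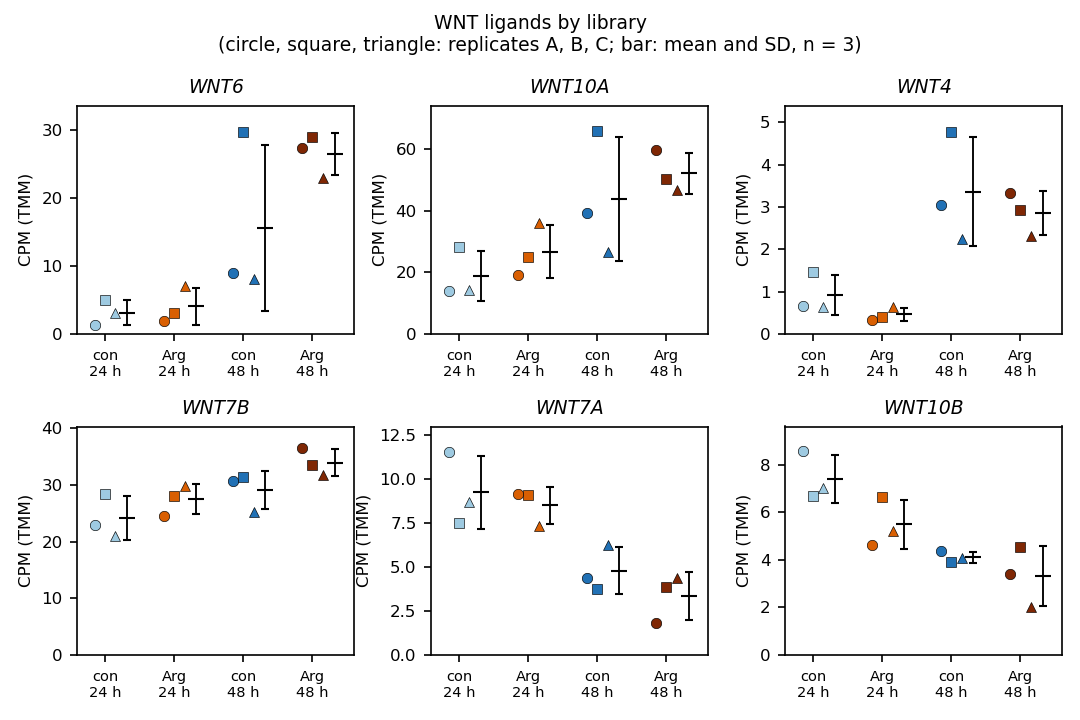
CPM (TMM) of WNT6, WNT10A, WNT4, WNT7B, WNT7A and WNT10B in every library, by group, with symbols and bars as for the inhibitors and receptors. WNT6 lies between 1.30 and 7.09 CPM at 24 h and between 8.10 and 29.7 CPM at 48 h, and control replicate B (squares) is the highest library of WNT6, WNT10A and WNT4 at 48 h.

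Among the receptors, FZD9 and FZD8 fell with time in the control, with log2 fold changes of −1.55 and −1.07 (standard errors 0.25 and 0.23, adjusted p = 0.00293 and 0.00929 from edgeR), and of −1.45 and −1.04 without replicate B at 48 h (adjusted p = 0.00281 and 0.0123). With Arg, where both had 5.11 CPM or less at 24 h, the log2 fold changes were −0.35 and −0.18 (adjusted p = 0.379 and 0.605). The decrease with time in the control and that with Arg at 24 h share the 24 h control libraries. FZD2 fell with time in the Arg libraries (log2 fold change −0.61, adjusted p = 3.85e-05), from the 24 h values above to 53.2, 55.2 and 64.8 CPM, and had 58.2, 50.7 and 59.8 CPM in the 48 h control (−0.38, adjusted p = 0.0595). FZD6 stayed between 125 and 169.9 CPM in all 12 libraries.
The co-receptor LRP6 had 27.1, 28.1 and 27.6 CPM with Arg at 24 h and 36.2 to 40.2 CPM at 48 h, a rise of 0.49 (standard error 0.09, adjusted p = 0.000417). In the control, it had 28.2, 29.8 and 29.3 CPM at 24 h, and the log2 fold change to 48 h was 0.05 (standard error 0.10). LRP5 had 84.5, 74.8 and 68.3 CPM in the control at 24 h and 88.0, 104 and 89.1 CPM at 48 h. With Arg, it had 72.8, 94.2 and 80.8 CPM and then 102, 106 and 104 CPM. Its 48 h libraries were above its 24 h libraries in each treatment, by 0.31 in the control (adjusted p = 0.0478, and between 0.0580 and 0.210 when any single library was left out) and by 0.34 with Arg (adjusted p = 0.00622).
DKK1 fell 2.43-fold with time in the control and 2.72-fold with Arg, with log2 fold changes of −1.28 (standard error 0.18, adjusted p = 0.00186) and −1.44 (standard error 0.11, adjusted p = 3.49e-08). All 48 h libraries of DKK1 were below all 24 h libraries, and without control replicate B at 48 h the control value was −1.12 (adjusted p = 0.000685). DKK3 rose in the control by 0.50 on the log2 scale (adjusted p = 0.0201, and 0.36 with 0.0402 without replicate B at 48 h), and its log2 fold change with Arg was 0.17 (adjusted p = 0.152). SFRP1 did not pass the test with time in either treatment (−0.29 in the control and −0.13 with Arg, adjusted p = 0.293 and 0.277). LGR4 had 95.8, 92.3 and 101 CPM at 24 h and 126, 117 and 122 CPM at 48 h with Arg, without overlap (rise of 0.34, adjusted p = 0.00141), and in the control 106, 105 and 93.0 CPM at 24 h and 104, 138 and 102 CPM at 48 h, with replicate B highest (0.18, adjusted p = 0.288). ZNRF3 had 28.4, 29.8 and 30.7 CPM in the 24 h control and 26.6, 29.5 and 31.4 CPM with Arg, and TCF7L2 lay between 18.0 and 25.2 CPM in all libraries. Neither passed the adjusted test with time.
Marker genes moved with time beside these. Of the 10 keratinocyte markers, 3 rose and 1 fell in the control at an adjusted p under 0.05 from edgeR, and 3 rose and 3 fell with Arg. KRT16, TP63 and CDH1 rose and KRT17 fell in each treatment. The summed level of the 8 genes of differentiating keratinocytes was between 359 and 658 RPKM at 24 h and between 734 and 1751 RPKM at 48 h, and 4 of the 7 tested, KRT1, KRT4, KRT10 and KRT13, rose in each treatment while SPRR1B fell. The same 4 genes rose in the control when its replicate B at 48 h was left out, and the call of SPRR1B as lower was lost. The summed level of the 7 fibroblast markers, which COL1A1 and DCN made up for the most part while COL1A2, COL3A1 and PDGFRA were under 0.1 RPKM, was between 2.77 and 4.77 RPKM at 24 h and between 6.51 and 8.99 RPKM at 48 h. Of the 4 endothelial markers, which summed to between 0.106 and 0.405 RPKM at 24 h and between 0.513 and 0.894 RPKM at 48 h, KDR rose in the control and with Arg (1.27 and 1.78 on the log2 scale, adjusted p = 0.0271 and 0.00207) and VWF rose with Arg (1.59, adjusted p = 0.0422), while CDH5 had 3 counts in all. MITF rose with Arg (0.41, adjusted p = 0.0140). The part of these markers in the changes with time was not tested. The calls with time in the control changed most with 2 of the 24 h libraries. Without control replicate A, 0 of the genes passed as higher (adjusted p between 0.0580 and 0.104 for the 5 that had risen), and 2, DKK1 and FZD9, passed as lower. Without control replicate C, 0 passed as higher (0.0564 to 0.210), and WNT7A and FZD8 no longer passed as lower. DKK1 and FZD9 passed with any single library left out.

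**Figure D5:**
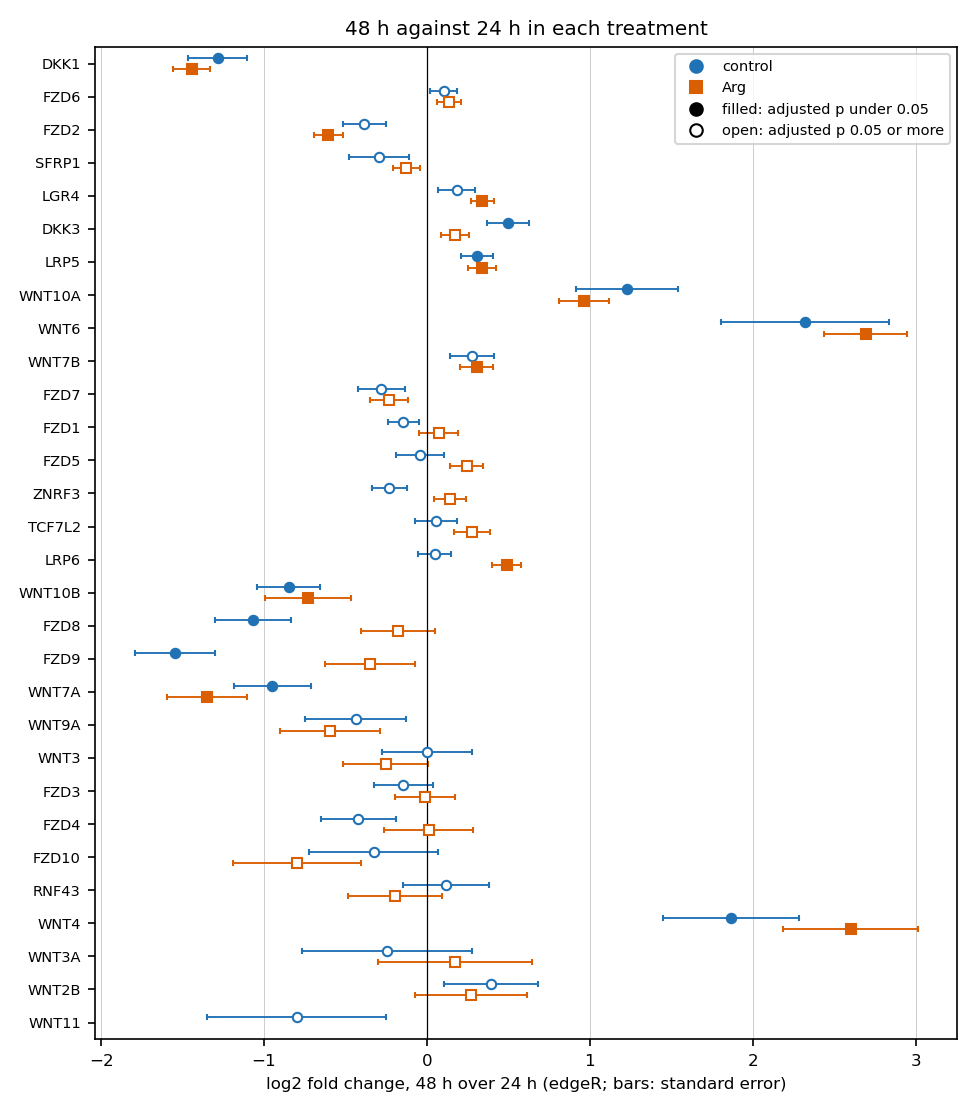
Log2 fold change of 48 h over 24 h in the control (circles) and with Arg (squares) for the genes tested in either treatment, with the standard error as bars, ordered by level. Filled symbols have an adjusted p under 0.05 from edgeR. WNT6, WNT4 and WNT10A are filled to the right and DKK1, WNT7A and WNT10B to the left in both treatments, while LRP6 is filled with Arg and open in the control.

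Whether the Arg effect differed between the times was tested by the interaction term of a model that held all 12 libraries. Of the 31 genes tested, edgeR called an Arg effect that was higher at 48 h than at 24 h for 0 genes and one that was lower for 0, at an adjusted p under 0.05, where 0.0132% and 0% of all 15148 genes were called, and DESeq2 also called 0 and 0. At an unadjusted p under 0.05, 4 were higher and 0 were lower by either tool, against 3.06% and 3.8% of all genes by edgeR. From the edgeR model of all genes, these were LRP6 (interaction 0.45 on the log2 scale, adjusted p = 0.430), FZD9 (1.20, 0.429), FZD8 (0.89, 0.606) and ZNRF3 (0.37, 0.609). Leaving out control replicate B at 48 h, edgeR called 0 and 0 as well, against 0.181% and 0.116% of all genes, with 7 higher and 0 lower at an unadjusted p under 0.05. The Arg libraries of LRP6 were all below the control libraries at 24 h and all above them at 48 h. At 24 h the nearest libraries were 28.1 CPM with Arg and 28.2 CPM in the control. The log2 fold change there was −0.08 (adjusted p = 0.681), so that no decrease was called. SFRP1 had log2 fold changes of −1.0 at 24 h and −0.83 at 48 h, and its interaction was 0.17 (standard error 0.22, adjusted p = 0.938).

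A list of 74 further genes of the pathway, from WNT secretion to target genes, was read from the same fits. At 24 h with Arg, 1 of the 60 tested was called higher and 2 lower, where 2.79% and 3.84% of all genes were. APCDD1, a membrane inhibitor of WNT signaling, had 2.33, 3.50 and 2.09 CPM in the control and 4.89, 5.71 and 7.36 CPM with Arg and rose by 1.18 (log2 scale, adjusted p = 0.00972 from edgeR). CSNK1E, a casein kinase that acts on the WNT signal in the cytoplasm, and JUN, an AP-1 factor listed as a target gene, fell, with log2 fold changes of −0.51 and −0.48 (adjusted p = 0.00589 and 0.00555). At 48 h, edgeR called 0 of 61 higher and 0 lower at the adjusted p, with 5 and 4 at an unadjusted p under 0.05. Leaving out control replicate B, it called 12 and 8 of 62, against 7.76% and 8.17% of all genes. The target gene SP5 was among the lower ones, with 0.630, 0.104 and 0.965 CPM in the control replicates A, B, and C and at most 2 counts in each Arg library (adjusted p = 0.0110), so that no fold is given. The largest other changes were those of APCDD1 (1.25, adjusted p = 4.24e-05), the R-spondin receptor LGR6 (−1.02, adjusted p = 0.0148), APC2 (0.77, adjusted p = 0.00530) and TRABD2A (−0.72, adjusted p = 0.00571). EPHB2 was another of the target genes called lower (−0.28, adjusted p = 0.0265), named after its values were seen.
With time, 7 of 62 rose and 6 fell in the control (9 and 5 without control replicate B at 48 h), and 14 of 59 rose and 8 fell with Arg. Over all genes, 9.9% rose and 10% fell in the control, and 14.3% and 14% with Arg, which are also the shares to set beside the smaller lists that follow. APCDD1 rose by 1.85 in the control and 1.18 with Arg (adjusted p = 0.0109 and 6.94e-05), with control replicate B (17.1 CPM) far above replicates A and C (5.04 and 6.38 CPM) at 48 h, and by 1.11 in the control without it (adjusted p = 0.0135). SOST, which encodes the LRP inhibitor sclerostin, rose by 1.57 and 1.12 (adjusted p = 0.00937 and 0.00271), from at most 2.04 CPM at 24 h to at least 3.16 CPM at 48 h (1.60 in the control without replicate B, adjusted p = 0.0107). TRABD2A, a membrane protease that inactivates WNT proteins, fell in each treatment, with log2 fold changes of −0.94 and −1.09 (adjusted p = 0.0159 and 8.27e-05, and −0.67 with 0.00753 in the control without replicate B). The largest other changes were the decreases of NKD2 (−1.68, at most 1.02 CPM) and PYGO1 (−0.81) in the control and the rises of PRICKLE2 (1.01) and PRICKLE1 (0.90) with Arg, with adjusted p-values between 0.010 and 0.0382. NKD2 had an adjusted p of 0.107 without control replicate B at 48 h. PRICKLE1 and PRICKLE2 belong to the 13 listed genes of non-canonical receptors and planar cell polarity, of which 5 of 11 tested rose and 0 fell in the control and 6 rose and 2 fell with Arg. Of the 18 listed genes of the β-catenin destruction complex and its partners, 0 passed the test in the control and 1 rose and 1 fell with Arg. Of the 13 nuclear factors, 0 rose and 2 fell in the control and 3 rose and 1 fell with Arg, and of the 10 listed target genes 0 rose and 2 fell, and 1 rose and 3 fell. Of the 3 genes of WNT secretion and the 5 R-spondin and LGR6 genes, 2 and 2 could be tested, and none of these 4 passed in any comparison with all libraries. When control replicate B at 48 h was left out, LGR6 was also called higher with time in the control (1.05, adjusted p = 0.0439). For the interaction, edgeR called 0 of 63 listed genes, with 2 higher and 3 lower at an unadjusted p under 0.05.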

How the data were processed

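Gene counts from poly(A) RNA sequencing (150 bp paired-end reads) of 12 libraries were used. The deposited values are raw counts per gene, which the authors made with fastp, STAR on GRCh38/hg38 and featureCounts and did not normalize. Tool versions, annotation release and strand setting are not given in the sources used here, so genes that overlap others are uncertain. The study's DESeq2 comparisons were replaced by edgeR 4.0.16 (R 4.3.3): quasi-likelihood test, TMM normalization, filterByExpr, Benjamini–Hochberg adjustment over all genes tested, 2 groups per fit, and an interaction in a model of 12 libraries. The standard error is the absolute log2 fold change divided by the square root of F. CPM used the TMM factors of all 12 libraries, and RPKM is CPM per kilobase of exonic length. The script was checked on simulated data.

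Genes named are those with an adjusted p under 0.05 in any test or an unadjusted p under 0.05 with Arg, the most abundant of each family, AXIN2, LGR5, TCF7L2, and at most 5 further pathway genes per comparison. Beyond that limit, EPHB2 with Arg at 48 h and LGR6 with time in the control were named from the fits without control replicate B. The genes and lists were chosen with earlier results of these data known. Alternatives were DESeq2 1.42.0, DESeq2 size factors, library size only, no filter, at least 10 counts in every library, a single model of all libraries, the replicate letter as a block, and leaving out each library. Leaving out control replicate B at 48 h for the pathway and marker lists was added after seeing the data.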

Additional observations from a re-analysis of the deposited data

Results flagged for a closer look

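The Arg effect differed between 24 and 48 h at an unadjusted p under 0.05 in edgeR for 4 genes, with interactions on the log2 scale of 0.45 for LRP6 (adjusted p = 0.430), 1.20 for FZD9 (adjusted p = 0.429), 0.89 for FZD8 (adjusted p = 0.606) and 0.37 for ZNRF3 (adjusted p = 0.609), so that none passed the adjustment over all genes. All 3 Arg libraries of LRP6 were below the control libraries at 24 h, but only just (log2 fold change −0.08, adjusted p = 0.681), and above them at 48 h. Those of ZNRF3 were above the controls at 48 h and overlapped them at 24 h. The Arg libraries of FZD8 were below the controls at each time, and those of FZD9 were below them at 24 h and overlapped them at 48 h. When control replicate B at 48 h was left out, the interactions were 0.51 for LRP6, 1.10 for FZD9, 0.86 for FZD8 and 0.46 for ZNRF3, with adjusted p-values between 0.134 and 0.385.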

How the results depend on the processing

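Of 552 values of named genes under the alternatives, 500 kept their direction and their side of the threshold, 15 passed it newly, 37 no longer passed it, and none changed direction. A gene entered for a comparison only if it passed there, or had an unadjusted p under 0.05 in edgeR with Arg or for the interaction. A kept direction was therefore likely from the start. WNT6, WNT10A, LGR4 and LRP5 with Arg at 48 h, called only without control replicate B, are not among these values. For the number of the 45 genes called, the larger shifts were few. Without a filter on low counts, 2 rose with Arg at 24 h in place of 1, and at 48 h 2 were higher and 2 lower in place of 0 and 0. With all 12 libraries in a single model, 1 (SFRP1, adjusted p = 0.0320) was lower at 48 h. The replicate letter as a block gave 1 higher and 2 lower at 48 h (WNT6, SFRP1 and DKK1), and kept the other counts within 1.5 times. Across all genes, libraries that share a letter deviated together little (correlations of −0.0615 to 0.135), so the block is given here alone. The highest correlation was that of control replicate B at 24 and 48 h. Within the control, replicate B was highest at each time for WNT6, WNT10A, WNT4, WNT7B, WNT3, DKK3, LRP6, FZD5, FZD6 and RNF43. It was lowest at each time for SFRP1, DKK1, WNT7A, WNT10B, FZD4, FZD8 and FZD10. Neither held for LRP5, LGR4, ZNRF3, FZD2 and FZD9, among others. With each library left out, the calls with Arg were 1 to 2 higher at 24 h, and 0 to 7 higher and 0 to 2 lower at 48 h, with 7 and 2 without control replicate B. With time in the control they were 0 to 4 higher and 2 to 6 lower, with 0 higher without control replicate A or C at 24 h and 2 lower without replicate A. The cause of these shifts was not tested. With 3 libraries per group, levels near 3 counts (0.156 to 0.179 CPM), such as those of AXIN2 and LGR5, could not be compared.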
